A study of Homo sapiens with 4 samples.

Results

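The NF-κB system was examined in untreated HaCaT cells through 10 genes chosen by name: the 5 subunits NFKB1, NFKB2, RELA, RELB and REL, the 3 IκB proteins NFKBIA, NFKBIB and NFKBIZ, and the 2 ubiquitin regulators TNFAIP3 and BIRC3. All 10 were found among the 44591 genes of the files, of which 19233 are protein-coding. HaCaT cells are human keratinocytes, the main cell type of the epidermis, which grow as an immortalized line. The medium held 12% serum per the labels, while the study's methods give a lower share, and total RNA was sequenced in bulk from 4 replicates of this 1 condition, with no treatment, no genetic change and no comparison group. The study used these libraries to survey sirtuin expression in resting keratinocytes, and its text calls the replicates biological repeats, while the labels do not say that they came from separate cultures. In bulk RNA, fewer cells that express a gene and less of its RNA per cell cannot be told apart.

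NF-κB is a family of transcription factors that work as dimers of the subunits RELA, RELB, REL and the products of NFKB1 and NFKB2. In resting cells IκB proteins hold the dimers in the cytoplasm, and signals from cytokine receptors activate the IκB kinase, which marks IκB for destruction and lets the dimers enter the nucleus. Several of the genes switched on there encode the pathway's own brakes, among them NFKBIA and TNFAIP3, and in epidermis the pathway is known for its part in inflammation, survival and the control of growth.

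The dimers bind a degenerate sequence of 10 bases called the κB decamer. The members' promoter sequences are shown because many of these genes are known targets of the pathway that they form. In the RefSeq promoter windows of GRCh38.p14, each 300 bases long from 250 before a transcript start to 50 after it, the decamer was searched on both strands, and matches that overlapped on opposite strands were counted as 1 site. At least 1 window held a match in 8 of the 9 genes with an entry, NFKB1, NFKB2, REL, NFKBIA, NFKBIB, NFKBIZ, TNFAIP3 and BIRC3, and 10 of their 15 windows held one. The share was 7.09% of the 27305 genes with a window and 8.47% of the 14511 protein-coding ones. RELB had no entry. Neither of the windows of RELA held these letters, which says nothing of whether NF-κB acts on it. Of the 14 sites found, 10 are printed, at least 1 for each gene with a match. They are given 5′ to 3′ on the strand of the gene, with the decamer in capitals between flanks of 10 bases, and each lies before the transcript start.
NFKB1, chr4:102501300-102501329, plus strand: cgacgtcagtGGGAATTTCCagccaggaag
NFKB2, chr10:102394461-102394490, plus strand: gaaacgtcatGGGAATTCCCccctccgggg
NFKB2, chr10:102395674-102395703, plus strand: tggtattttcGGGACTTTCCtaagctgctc
REL, chr2:60881517-60881546, plus strand: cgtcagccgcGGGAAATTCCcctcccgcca
NFKBIA, chr14:35404811-35404840, minus strand: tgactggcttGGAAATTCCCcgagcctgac
NFKBIB, chr19:38899931-38899960, plus strand: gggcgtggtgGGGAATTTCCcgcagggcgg
NFKBIZ, chr3:101827757-101827786, plus strand: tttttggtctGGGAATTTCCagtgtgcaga
TNFAIP3, chr6:137867182-137867211, plus strand: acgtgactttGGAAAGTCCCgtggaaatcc
TNFAIP3, chr6:137867194-137867223, plus strand: aaagtcccgtGGAAATCCCCgggcctacaa
BIRC3, chr11:102317339-102317368, plus strand: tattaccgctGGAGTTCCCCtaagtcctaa

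Of the sites shown, those of NFKB1, NFKBIB and NFKBIZ were the same 10 letters in different flanks. Those of NFKBIA, TNFAIP3 and BIRC3 matched on the strand opposite to the gene. The capitals of the first site of NFKB2 matched on both strands, as did a further site of NFKBIZ with other letters that is not shown. At the sites of REL and NFKBIB the capitals matched on the strand of the gene. An overlapping decamer that reached into the flank matched there on the opposite strand. The pair in TNFAIP3 began 67 and 55 bases before the start, so that the flank of one site holds part of the other. NFKB2 had 4 sites in 2 of its 3 windows, the most of any member. The map of sites shows those of NFKBIZ and BIRC3 and 1 of NFKB2 farther from the start than the rest. A match is a description of the sequence, and binding was not measured.

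**Figure D1:**
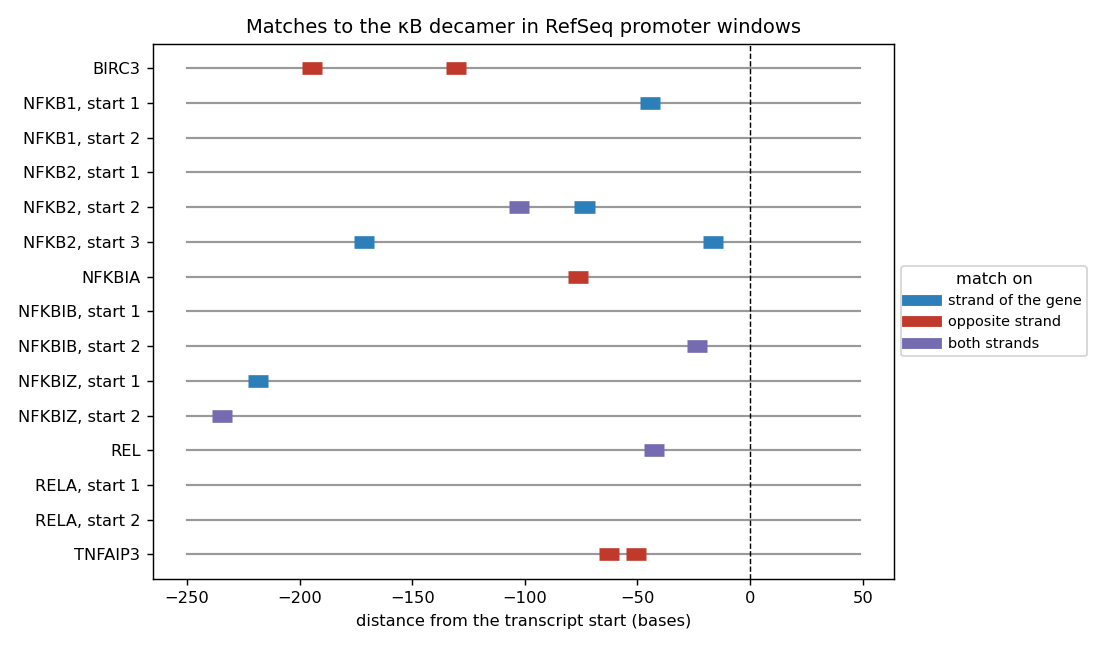
Matches to the κB decamer in the RefSeq promoter windows of the 9 members with an entry, where each grey line is 1 window, the horizontal axis gives the distance from the transcript start in bases (dashed line at 0), and colours give the strand of the match. The site of NFKB1 begins 49 bases before the start, and the windows of RELA are empty.

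Levels are given as TPM, the deposited counts per gene length scaled to the same total over the protein-coding genes of each library, so that genes can be compared per length. The libraries held 17056035 to 73082279 counts, with replicate 1 the deepest. Replicate 1 stood apart from the others in 3 ways. Protein-coding genes took 76.1% of its counts against 95.3% to 96.4% in replicates 2 to 4. Across detected genes, which are not independent replicates, its Spearman correlation with the others was 0.765 to 0.793, against 0.943 to 0.966 among the others. Its deviation from them ran with the GC content of the gene (Spearman -0.53 across genes). Values for replicates 2 to 4 alone are therefore given beside results that rest on replicate 1. The keratinocyte label fitted the markers, since 12 of 12 keratinocyte markers had a mean TPM above 1 and KRT14 stood at 6375 to 7642 TPM. Of all protein-coding genes 63.3% had such a mean. Of 10 immune cell markers only CD14 had a mean above 1, and the summed level of the list was 3.68 to 9.44 TPM, with CD3D and MS4A1 at 0 counts in every replicate. The 8 fibroblast markers summed to 5.20 to 9.70 TPM and the 6 endothelial markers to 0.956 to 2.36 TPM.

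All 10 genes were transcribed in resting HaCaT cells. All had a mean TPM above 1, as did 63.3% of all protein-coding genes, and all had in addition more than 3 counts in every replicate, as did 61.9%. The lowest count of any member in any replicate was 218, so none was near the limit of detection. By mean TPM the order from high to low was NFKBIA, RELA, TNFAIP3, NFKB2, NFKB1, RELB, BIRC3, NFKBIB, NFKBIZ and REL. NFKBIA lay at percentile 96.1 of the mean levels of the 11899 detected protein-coding genes, RELA at 89.2 and REL at 29.04. NFKBIA ranked first of the 10 in each replicate, whereas RELA was at rank 4 in replicate 1 and at rank 2 in the other 3.

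**Figure D2:**
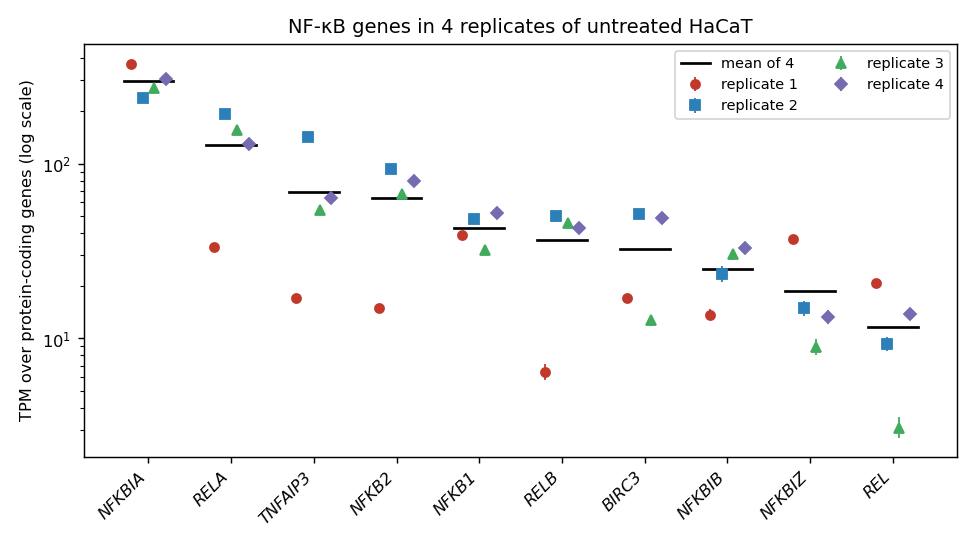
Level of each member in each of the 4 replicates, in TPM over protein-coding genes on a log axis, with the mean as a horizontal line and exact 95% Poisson intervals for counting error as thin bars. NFKBIA holds the top place in every replicate, and the points of replicate 1 lie apart from the others for RELB, NFKB2 and RELA.

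Among the subunits, RELA, which carries the main transactivation domain of the classical dimer, was the highest in replicates 2 to 4. Its gene spans chr11:65421067-65430443 on the minus strand (positions of the deposited files throughout for gene spans). In replicates 1 to 4, RELA stood at 33.3, 192, 156 and 129 TPM. The mean ± SD, here and below over n = 4, was 127.5 ± 67.9. Replicate 1 lay below the others, whose highest value was 1.49 times the lowest.

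NFKB1 encodes the precursor of the DNA-binding partner of RELA (chr4:103422486-103538459, plus strand). Its level was 38.9, 48.2, 31.9 and 52.5 TPM, a mean of 42.9 ± 9.27. Over 4 replicates it had the narrowest range of the subunits, with its highest replicate 1.65 times its lowest, and replicate 1 lay among the others. Over replicates 2 to 4 its range was again 1.65 times, wider than those of RELA, NFKB2 and RELB.

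NFKB2 and RELB belong to the alternative branch of the pathway, in which the NFKB2 precursor is processed and pairs with RELB. NFKB2 (chr10:104153867-104162286, plus strand) stood at 15.0, 93.1, 67.4 and 80.0 TPM, a mean of 63.9 ± 34.2. RELB (chr19:45504707-45541456, plus strand) stood at 6.45, 50.1, 46.1 and 43.0 TPM, a mean of 36.4 ± 20.2. For both genes replicate 1 was far below and replicates 2 to 4 lay close together, with highest to lowest ratios among these 3 of 1.38 for NFKB2 and 1.17 for RELB. The mean of replicates 2 to 4 was 5.34 times replicate 1 for NFKB2 and 7.20 times for RELB.

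REL, a subunit known best from lymphocytes, was the lowest member by mean (chr2:61108630-61155306, plus strand). It stood at 20.7, 9.34, 3.09 and 13.8 TPM, a mean of 11.7 ± 7.39. Unlike those of RELA and RELB, its highest value was in replicate 1, and it also spread over 4.45 times among replicates 2 to 4. After centring on GC, an alternative added after seeing the data, REL stood at 12.7, 9.91, 5.14 and 13.2 TPM, highest in replicate 4. Of the immune cell markers, PTPRC, the pan-leukocyte marker, had 3 counts in replicate 1 and 0 in the others. CD3E had 13 counts in replicate 1 and 0 in the others, LYZ had 4 and 0, and CD79A had 4, 1, 1 and 0. In TPM, CD79A stood at 0.131, 0.120, 0.0884 and 0. These few counts were highest in replicate 1, which was also the deepest library, and are too low to set beside the level of REL. Other immune cell markers were lowest in replicate 1, with CSF1R at 0, 12, 5 and 2 counts and ITGAM at 4, 20, 13 and 16. CD14 stood at 3.03, 8.08, 4.99 and 8.92 TPM, in replicate 3 above REL, and its lowest value was where REL was highest before centring on GC. The part of other cells in the level of REL was not tested.

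The makeup of the subunit pool differed in replicate 1. The 5 subunits summed to 114, 393, 304 and 318 TPM. RELA made up 29.1% of this sum in replicate 1 and 48.9%, 51.2% and 40.5% in replicates 2 to 4. NFKB1 was the largest share in replicate 1, at 34.0%, against 12.3%, 10.5% and 16.5% in the others. REL also had its largest share there, with 18.1% in replicate 1 and 2.38%, 1.02% and 4.32% in the others. In replicates 2 to 4, RELA was the largest share and NFKB2, at 22.2% to 25.1%, came next. These shares were not corrected for GC. After centring on GC, RELA was the highest subunit in replicate 1 too, at 43.7 TPM against 39.8 for NFKB1.

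**Figure D3:**
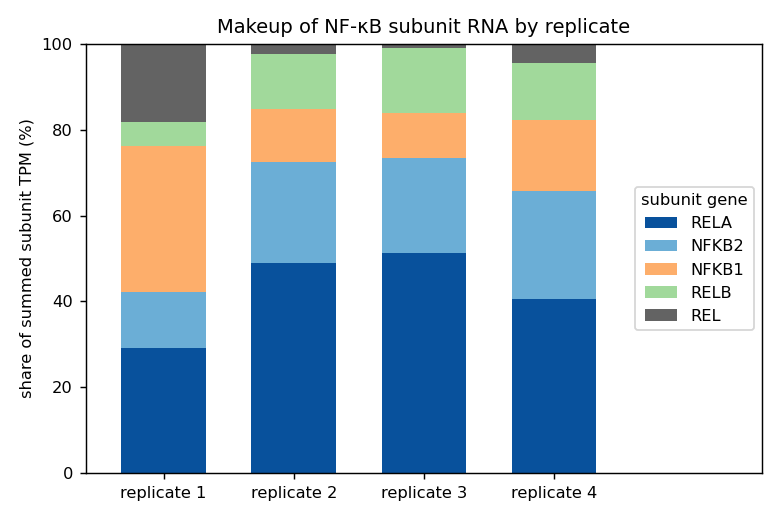
Share of each of the 5 NF-κB subunits in their summed TPM, in percent, by replicate. RELA makes up 40.5% to 51.2% in replicates 2 to 4 and 29.1% in replicate 1, where NFKB1 reaches 34.0%.

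NFKBIA encodes IκBα, the classical inhibitor that holds RELA dimers in the cytoplasm and is itself a target of NF-κB (chr14:35870716-35873960, minus strand). Its level was 372, 239, 273 and 304 TPM, a mean of 297 ± 56.6. The replicates lay within 1.56 times of each other, the narrowest range of the 10 genes over 4 replicates, and replicate 1 was the highest. Over replicates 2 to 4 the range was 1.27 times, wider than that of RELB, and after centring on GC, an alternative added after seeing the data, NFKBIA ran from 210.0 TPM in replicate 2 to 434 in replicate 1.

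NFKBIB, which encodes the related inhibitor IκBβ, was about an order of magnitude lower (chr19:39390340-39399534, plus strand). It stood at 13.7, 23.5, 30.2 and 33.1 TPM, a mean of 25.1 ± 8.61. The gene overlaps SIRT2 on the opposite strand by 163 bases. SIRT2 had 2112, 228, 277 and 399 counts, and whether counting used the strand is not given in the sources used here, so reads of the overlap cannot be told apart.

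NFKBIZ encodes IκBζ, a nuclear member of the family that acts as a cofactor of NF-κB in the transcription of some of its targets and is known from psoriatic skin (chr3:101546834-101579869, plus strand). It stood at 37.2, 14.9, 8.99 and 13.3 TPM, a mean of 18.6 ± 12.7. Replicate 1 was the highest, and replicates 2 to 4 lay within 1.66 times of each other, with a mean of 12.4 ± 3.05 TPM (n = 3). NFKBIZ overlaps NXPE3 on the same strand by 242 bases, where NXPE3 had 278 to 387 counts.

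TNFAIP3 encodes a ubiquitin-editing enzyme that ends signalling from TNF and Toll-like receptors (chr6:138188325-138204451, plus strand). Its level was 16.97, 141, 54.6 and 64.0 TPM, a mean of 69.2 ± 52.2. It had the widest range of the 10 genes, 8.33 times, with replicate 2 the highest and replicate 1 the lowest, and among replicates 2 to 4 the range was 2.59 times. Without replicate 2 its mean was 45.2 TPM, below that of NFKB2 without the same replicate (54.1). TNFAIP3 overlaps 2 noncoding genes on the opposite strand, which had at most 105 counts in any replicate.

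BIRC3 encodes a ubiquitin ligase that protects cells from death after TNF and, with its relative BIRC2, restrains the alternative branch (chr11:102188181-102210134, plus strand). It stood at 16.96, 51.3, 12.7 and 49.0 TPM, a mean of 32.5 ± 20.5. The values fell into a low pair, replicates 1 and 3, and a high pair, replicates 2 and 4, so that its range of 4.03 times was as wide without replicate 1.

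Only 2 of the 9 neighbouring pairs in the order of levels kept 1 order in all 4 replicates. NFKBIA exceeded RELA in 4 of 4 replicates, by 1.45 ± 1.38 on the log2(TPM + 1) scale (exact sign-flip permutation test, p = 0.125, adjusted p = 0.56, the smallest unadjusted p that n = 4 allows). Without replicate 1 the difference was 0.78 ± 0.46, and on counts without length correction RELA was the higher in replicate 2 (3291 against 2492 counts). RELA exceeded TNFAIP3 in 4 of 4 replicates, by 0.97 ± 0.43, with the same exact p = 0.125 and adjusted p = 0.56. The latter difference was -0.0076 when a gene's length was taken as all its annotated exons joined. The other 7 pairs changed order between replicates. TNFAIP3 and NFKB2 differed by 0.04 ± 0.44 on this scale, and by -0.01 without replicate 1 and -0.15 without replicate 2. NFKB1 exceeded RELB by 0.53 ± 1.30, and the difference was -0.10 without replicate 1. RELB and BIRC3 differed by 0.07 ± 1.26, and by -0.50 without replicate 3. BIRC3 and NFKBIB differed by 0.19 ± 0.98, and by -0.11 without replicate 2. NFKB2 and NFKB1 (0.32 ± 1.11), NFKBIB and NFKBIZ (0.54 ± 1.34) and NFKBIZ and REL (0.67 ± 0.55) each kept their order in 3 of 4 replicates, and without replicate 1 the first of these was 0.86 and the second 1.17. The exact p of these 7 pairs was 0.25 to 1 before adjustment.

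Within each library the ratio of a pair does not depend on how the library was scaled. The pairs below were chosen after values were seen, and the intervals are 95% Clopper-Pearson intervals for counting error only. NFKBIA over RELA, the inhibitor against its main partner, was 11.2 in replicate 1, with an interval of 10.7 to 11.7. Replicate 2 had the lowest ratio, 1.25 with an interval of 1.18 to 1.31, and replicates 3 and 4 had ratios of 1.75 and 2.36. NFKBIA was thus the higher of the pair in every library, and the interval of replicate 1 did not overlap any other.

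NFKB2 over NFKB1, which sets the alternative against the classical precursor, was 0.386 in replicate 1 and 1.93, 2.11 and 1.52 in the others. The order of the precursors was thus opposite in replicate 1, with its interval (0.363 to 0.410) below 1 and those of the other 3 above 1. RELA over NFKB1 turned the same way, at 0.855, 3.98, 4.88 and 2.46. After centring on GC, RELA was above NFKB1 in replicate 1, at 43.7 against 39.8 TPM, while NFKB2 stayed below NFKB1 at 22.3. RELB over RELA, at 0.194, 0.261, 0.296 and 0.333, moved much less than either gene alone. The low level in replicate 1 was thus shared by RELA, RELB and NFKB2 and not by NFKB1.

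REL over RELA was 0.621 in replicate 1 and 0.0486, 0.0199 and 0.107 in the others. NFKBIB over NFKBIA was 0.0368, 0.0981, 0.111 and 0.109, so that NFKBIB was a small part of the cytoplasmic inhibitors in each library. TNFAIP3 over NFKBIA, a pair of feedback inhibitors, was 0.0456, 0.591, 0.200 and 0.210. Both are textbook targets of the same factor, and their ratio spread more widely between replicates than NFKBIA itself. BIRC3 over its relative BIRC2 was 0.177, 1.47, 0.697 and 1.13, with BIRC3 the lower in replicates 1 and 3 and the higher in replicates 2 and 4.

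**Figure D4:**
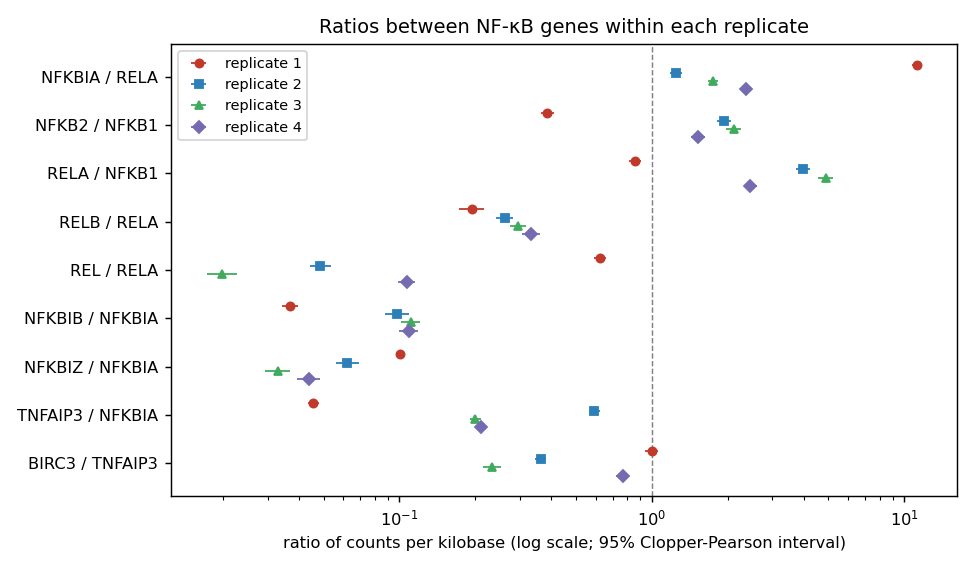
Ratios of pairs of NF-κB genes in counts per kilobase, by replicate, on a log axis, with 95% Clopper-Pearson intervals for counting error. NFKBIA over RELA lies at 11.2 in replicate 1 and 1.25 to 2.36 in the others, and NFKB2 over NFKB1 is below 1 in replicate 1 only.

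The balance of inhibitors and subunits was taken as the summed TPM of NFKBIA and NFKBIB over that of the 5 subunits. The inhibitors summed to 386, 263, 303 and 337 TPM, and the ratio was 3.38, 0.669, 0.997 and 1.06 in replicates 1 to 4. On the log2 scale the mean ratio was 0.31 ± 1.01 (SD, n = 4), which was not distinguished from 0 by an exact sign-flip permutation test (p = 0.75). Without replicate 1 it was -0.17 ± 0.36. The summed RNA of NFKBIA and NFKBIB was thus of about the same amount as that of the subunits in replicates 3 and 4. It was lower in replicate 2 and higher in replicate 1. NFKBIE, a further cytoplasmic inhibitor at 9.52, 30.0, 35.7 and 28.5 TPM, was not in the sum, and NFKB1 and NFKB2 were counted as subunits only. Protein was not measured.

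Over 4 replicates 8 of 10 members varied more than the median gene, and over replicates 2 to 4 the members' median was that of all genes. The median SD of log2(TPM + 1) was 1.01 over the members and 0.51 over the 11899 detected protein-coding genes. Over replicates 2 to 4 it was 0.32 and 0.33. The highest replicate was at least 2 times the lowest in 8 of 10 members, all except NFKB1 and NFKBIA, against 63.4% of detected genes, and without replicate 1 the count was 3. After centring on GC it was again 8, with 7 members in both and NFKBIA in place of NFKBIB. These 3, REL, TNFAIP3 and BIRC3, compare with 29.5% of detected genes. Replicate 1 lay at least 2 times below every other replicate for 4 members, NFKB2, RELA, RELB and TNFAIP3, against 15.4% of detected genes. It lay at least 2 times above every other for NFKBIZ alone, against 10.4%.

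Since replicate 1 deviated with GC content over all genes, each member was set beside genes of like GC in 20 bins. RELB, with a GC content of 65.4% the most GC-rich member, was lower in replicate 1 than the mean of the others by 2.67 on the log2(TPM + 1) scale, where the median of its bin was -0.88. NFKB2 (62.4% GC) stood at -2.33 with a bin median of -0.73, and RELA (57.1% GC) at -2.20 with a bin median of -0.51. TNFAIP3, with 49.5% GC, stood at -2.16 where the bin median was -0.05. These 4 are the members already picked as at least 2 times below every other replicate. Their place below the bin median was thus given by that choice, as no bin median lay below -0.88. Within their bins RELB lay at percentile 8.06, NFKB2 at 9.97, RELA at 7.39 and TNFAIP3 at 2.92. BIRC3, the member with the lowest GC content (34.8%), stood at -0.88 where its bin median was 0.96. NFKBIZ stood at 1.54 with a bin median of 0.11 and REL at 1.34 with a bin median of 0.88. NFKBIA stood at 0.46 with a bin median of -0.29, NFKBIB at -1.01 with -0.73 and NFKB1 at -0.15 with -0.05. The part of GC content or of the RNA classes of replicate 1 in these differences was not tested.

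**Figure D5:**
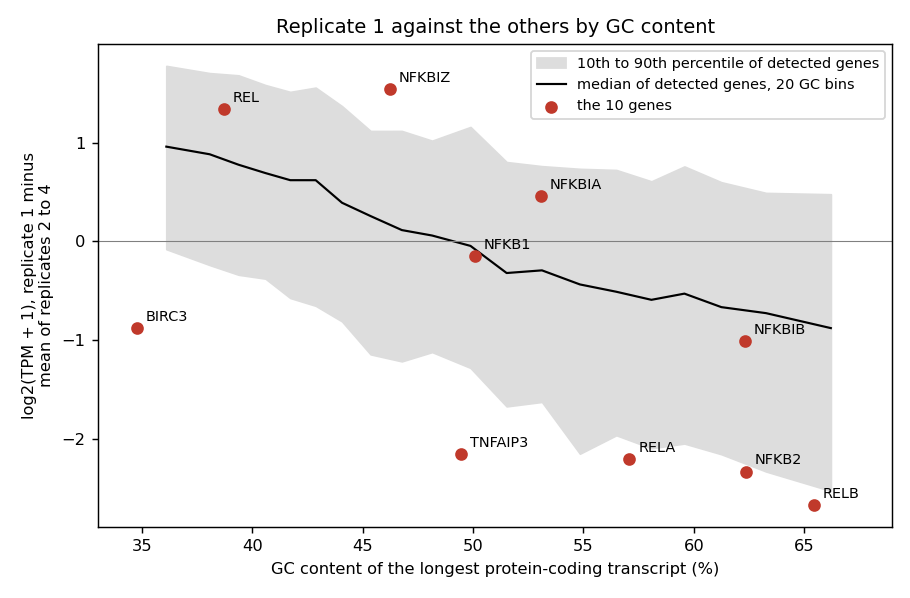
Difference of replicate 1 from the mean of replicates 2 to 4 in log2(TPM + 1) against GC content, with the members as points and the median and the 10th to 90th percentile of all detected genes in 20 GC bins. RELB, NFKB2, RELA, TNFAIP3, BIRC3, NFKBIB and NFKB1 lie below the median of their bins, the last 2 by little, and NFKBIZ, REL and NFKBIA above.

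Interferon-induced genes also differed between the replicates. A list of 15 of them summed to 282, 8622, 8904 and 497 TPM in replicates 1 to 4. RELA and RELB had their higher values in replicates 2 and 3, with 129 and 43.0 TPM in replicate 4, where the interferon-induced genes were low. All other members were higher in replicate 4 than in replicate 3. BIRC3 stood at 49.0 against 12.7 TPM, NFKB1 at 52.5 against 31.9 and NFKBIA at 304 against 273. Against replicate 2, where the interferon-induced genes were also high, these members were split. NFKB2, TNFAIP3, NFKBIZ and BIRC3 were higher in replicate 2 than in replicate 4, with TNFAIP3 at 141 against 64.0 TPM. NFKB1, REL, NFKBIA and NFKBIB were lower in replicate 2, with NFKBIA at 239 TPM. The part of the interferon state in the members' levels was not tested.

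Likeness of pattern was measured as the root mean square difference of log2(TPM + 1), each gene centred on its own mean, over the 4 replicates. Among the members, NFKB2 and RELA (0.19), NFKB2 and RELB (0.20) and RELA and RELB (0.24) were the most alike. The 3 members with the widest range had the following nearest genes among 11889 others. For TNFAIP3 these were RUNX1 (0.11), CYP27B1 (0.11) and TM4SF19 (0.12), and no gene lay within 0.1. For RELB they included CSNK1D (0.031) and NUMBL (0.055), and for REL they were HERC1 (0.016), RHOBTB3 (0.017) and FAM208A (0.020). With 4 replicates such likeness is a description of these libraries.

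The rest of the pathway was read through 7 lists of 84 genes in all, of which 73 had a mean TPM above 1. Among all protein-coding genes the share was 63.3%, which is the value to set beside each list below. The other IκB genes were all 4 above it. BCL3, a nuclear IκB protein that binds the product of NFKB2, stood at 1.94, 70.8, 43.9 and 58.1 TPM, and over NFKB2 at a ratio of 0.130, 0.760, 0.652 and 0.727. NFKBIE, a further cytoplasmic inhibitor, stood at 9.52, 30.0, 35.7 and 28.5 TPM. Both had their lowest value in replicate 1 by a wide margin, as NFKB2 and RELB did. NFKBID was also lowest there by a smaller margin, at 3.02, 6.46, 4.38 and 6.25 TPM. NFKBIL1 went the other way, at 38.4, 18.5, 24.7 and 29.7 TPM, highest in replicate 1.

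All 10 IκB kinase and related genes had a mean above 1. The catalytic subunits CHUK and IKBKB stood at 23.6 ± 2.03 and 27.7 ± 8.38 TPM (SD, n = 4), and the scaffold IKBKG at 11.5 ± 2.58. Over 4 replicates these 3 had ranges of 1.22 times for CHUK, 1.94 for IKBKB and 1.73 for IKBKG, narrower than those of RELA and NFKB2. Over replicates 2 to 4 IKBKB, at 1.89 times, ranged more widely than both, against 1.13 for CHUK and 1.23 for IKBKG. MAP3K14, the kinase of the alternative branch, stood at 4.93, 35.4, 27.8 and 14.2 TPM, lowest in replicate 1.

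All 17 adaptor and ubiquitin ligase genes had a mean above 1, led by IRAK1, a kinase of the interleukin-1 and Toll-like receptors, at 220.0 ± 103 TPM. BIRC2 stood at 95.8, 34.9, 18.3 and 43.3 TPM, highest in replicate 1, where BIRC3 was low. Of the 10 other negative regulators 9 had a mean above 1, with TNIP1, a partner of the TNFAIP3 protein, at 162 ± 79.8 TPM and the deubiquitinase CYLD at 15.6 ± 6.33. TNIP3 was the exception, with a mean of 0.48 TPM.

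Of 10 ligands 5 had a mean above 1, a smaller share than the 63.3% of all protein-coding genes. IL1B stood at 3.93, 92.9, 64.8 and 61.1 TPM and TNF at 0.49, 5.47, 9.09 and 4.80, both lowest in replicate 1. TNFSF11 and CD40LG had 0 counts in every replicate, where 3 counts would be 0.0410 to 0.176 CPM. Of 13 receptors 12 had a mean above 1, led by TNFRSF12A at 61.5, 294, 450 and 224 TPM, and TNFRSF1A, the main TNF receptor of most cells, stood at 129 ± 52.8. Of 20 textbook target genes 16 had a mean above 1, and TNFAIP2 (347 ± 191 TPM) and LCN2 (325 ± 184 TPM) were the highest. Over the 7 lists, replicate 1 lay at least 2 times below every other in 20 of 69 detected genes and above in 3, and in the members in 4 and 1 of 10, against 15.4% and 10.4% of all detected genes.

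The κB decamer was in a promoter window of 9 of 18 textbook target genes, 3 of 10 other negative regulators, 3 of 8 ligands, 2 of 3 other IκB genes, 1 of 9 kinases, 1 of 14 adaptors and 0 of 10 receptors with an entry. The share was 8.47% of protein-coding genes with a window, and those of the kinases (11.1%) and adaptors (7.14%) were near it. The members, with 8 of 9, and the targets stood above it. The members and these lists were chosen from knowledge of the pathway, in which many are known targets, so their counts are a description.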

How the data were processed

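RNA-seq was performed on 4 replicates of untreated HaCaT cells (HISAT, HISAT2, TopHat2, Bowtie2 and build hg19 are named in the submitters' processing notes, without roles; the counting program and the annotation are not given in the sources used here). The authors deposited raw read counts per gene with a gene length and position for 44591 genes, RPKM for replicates 1 and 2 and TPM for replicates 3 and 4. Because the length-corrected unit differed between replicates, TPM was computed from the deposited counts and lengths over the 19233 protein-coding genes, which sum to 1000000 in each library. Differences between genes or replicates on the log2 scale use log2(TPM + 1), while folds, ranges and ratios, and the log2 of inhibitors over subunits, are of plain values with no pseudocount. A gene was called detected with a mean TPM above 1 and more than 3 counts in every replicate. No per-sample column was without a sample (0 columns).

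Total counts per library were 17056035 to 73082279. With a single group there was no test of differential expression. Neighbours in the order of levels were compared within replicates by two-sided exact sign-flip permutation tests with Benjamini-Hochberg adjustment over 9 pairs. The pairs and their order were taken from the means of these same values, so the tests only describe them. The smallest p that 4 replicates allow is 0.125. These p-values measure only the spread between these samples, which may be technical. For ratios, 95% Clopper-Pearson intervals are given. Reads carried no molecular identifiers and so are not independent molecules, and the intervals hold only the error of counting. The scripts were tested on simulated data.

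The genes and the lists of pathway genes, the pairs compared as ratios and the call rules were chosen with earlier results of these data known. All 10 genes are named. Of the pathway lists, every gene of a list of at most 10 could be named, and of longer lists the 4 with the highest mean, the 4 with the widest range and those at 0 in every replicate. For the 3 members with the widest range, the 3 genes with the most similar pattern were named, and some items are not reported here. The longest protein-coding transcript of a gene in GENCODE release 29 gave its GC content, for 97.9% of detected genes. Promoter sequences are from RefSeq (GRCh38.p14), 250 bases before to 50 after a transcript start, and gene positions are those of the deposited files. Other scalings, gene lengths, pseudocounts and detection limits, and leaving out each replicate, were tried, and centring on GC was added after seeing the data. Computation used SciPy 1.17.1, NumPy 2.4.6 and pandas 2.3.3 under Python 3.11.15, and plots were drawn with matplotlib 3.10.9.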

Additional observations from a re-analysis of the deposited data

Results flagged for a closer look

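In 77 sets of 4 replicate values, the highest or lowest value was set against the other 3, and 5 sets had a value whose gap to its nearest neighbour was a larger share of the range than Dixon's 95% limit allows. Chance gives about 1 in 20 independent sets, or 3.85 here, and the number past the limit is close to that. The sets share genes and replicates and so are not independent. Whether these values arose by chance cannot be told from this number. Of the 5 values, 4 were in replicate 1. RELB stood at 6.45 TPM in replicate 1 against 43.0 to 50.1 in the others. NFKBIA over RELA was 11.2 in replicate 1 against 1.25 to 2.36, REL over RELA was 0.621 against 0.0199 to 0.107, and NFKB1 over RELB was 6.03 against 0.693 to 1.22. N4BP1, a negative regulator of the pathway, stood at 42.0 TPM in replicate 2 against 26.8 to 27.1 in the others.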

How the results depend on the processing

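Of 33 results under the alternatives, 13 of the recomputed values changed sign, 11 moved by more than the spread between replicates (means) or over 1.5 times (counts), and the other 303 did neither, although differences between genes could change in size. With the union of annotated exons as length, RELA minus TNFAIP3 was -0.0076 and RELB minus BIRC3 -0.21 (log2), and NFKBIB had a mean of 40.0 TPM. With the exons of protein-coding transcripts, TNFAIP3 minus NFKB2 was -0.044. On counts without length correction, NFKBIA minus RELA was 0.74, RELA minus TNFAIP3 0.10, NFKB1 minus RELB 1.45, BIRC3 minus NFKBIB 1.71, RELB minus BIRC3 was -1.49, NFKBIB minus NFKBIZ -0.26, NFKBIZ minus REL -0.15 and inhibitors over subunits -0.77, which shows what length does to these orders. With TPM over all genes, which include the noncoding RNA of replicate 1, NFKB1 had a mean of 32.9 and NFKBIA of 212 TPM, NFKBIZ of 11.2 and REL of 7.54, and replicate 1 was low in 7 members and high in 0. With a 3-fold limit it was high in 0. At a mean TPM above 5, 2 ligands and 7 receptors passed. Beyond the changed length, scale, limit or number of samples, the cause was not tested.

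Leaving out each replicate gave -0.15 to 0.16 for TNFAIP3 minus NFKB2, -0.10 to 0.88 for NFKB1 minus RELB, -0.50 to 0.52 for RELB minus BIRC3, -0.11 to 0.65 for BIRC3 minus NFKBIB and -0.17 to 0.61 for inhibitors over subunits. The count of members with a 2-fold range was 3 to 8, among replicates 2 to 4 it was 1 to 3, and that of members high in replicate 1 was 1 to 2. Replicate 1 decided the first of these counts (3 without it), replicate 3 the second (1 without it) and replicate 4 the last (2 without it). Centring on GC, an alternative added after seeing the data, left the same 4 members low and the same 1 high in replicate 1. It also put RELA above NFKB1 in replicate 1 and the highest value of REL in replicate 4. No paired analysis was possible because there is a single group. With 4 replicates of 1 condition, no p below 0.125 can be reached, and levels of RNA say nothing of the location or activity of the proteins.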
